A study of Mus musculus with 13 samples.

Results

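The negative feedback genes of the ERK pathway, that is 4 dual-specificity phosphatases (Dusp1, Dusp4, Dusp5 and Dusp6), 3 Sprouty genes (Spry1, Spry2 and Spry4) and the Sprouty-related gene Spred1, were followed in cooled and control mouse embryonic fibroblasts. They were chosen by name, and each was read from the transcript cluster annotated to it with the highest mean over all arrays. All 8 were found, out of 19938 genes measured, and each had a single transcript cluster. Primary fibroblasts were grown at 37°C in DMEM with fetal bovine serum. The incubator was then lowered to 32°C for the group labelled hypothermia or left at 37°C for the group labelled normothermia. Each group was sampled at 0.5, 1, 2, 4, 8 and 18 h, and 1 further array at 0 h and 37°C served as the start of both series. RNA from 3 dishes was pooled for each of the 13 arrays, so there were no replicate arrays, and the error of every test below is the spread between arrays of different times. Strain, sex and embryonic age of the cells were not given in the sources used here.

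Growth factors bind receptor tyrosine kinases, which activate the GTPase RAS and through it the kinases RAF, MEK and ERK in turn. Active ERK raises the transcription of genes whose products switch the pathway off again. The DUSP proteins remove phosphates from ERK and, for some of them, from the related kinases p38 and JNK, while Sprouty and Spred proteins act further up, between the receptor, RAS and RAF. Transcripts of these genes are usually short-lived, and fibroblasts that receive serum raise many of them briefly.

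The values are log2 intensities. The median intensity of the 13 arrays lay between 145 and 149.8. Of the 10 fibroblast markers examined, all were above the median gene and 8 were above the 90th percentile. Among the markers of other cell types, 1 of 6 for macrophages (Cd68), 0 of 5 for endothelium, 1 of 5 for epithelium (Krt8), 1 of 5 for neural cells (Nes) and 1 of 5 for skeletal muscle (Des) lay above the median gene. In such bulk samples fewer cells with a transcript and less of it per cell cannot be told apart.

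Most of the 8 transcripts rose within the first 2 h at both temperatures and returned toward the level of 0 h by 18 h. At 0.5 h the cooled and the control array were nearly alike, and at 1 h all 8 transcripts were higher at 32°C. At 32°C the highest array was that at 1 h for 7 of the 8 (Dusp4 was highest at 2 h), whereas at 37°C the highest array was that at 0.5 h for Dusp1, Dusp5, Spry2 and Spry4. None of the 8 passed the adjusted threshold in any of the 7 limma tests. The pattern is therefore a description of single arrays. The courses of the 8 transcripts are shown with both temperatures in 1 panel each.

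**Figure D1:**
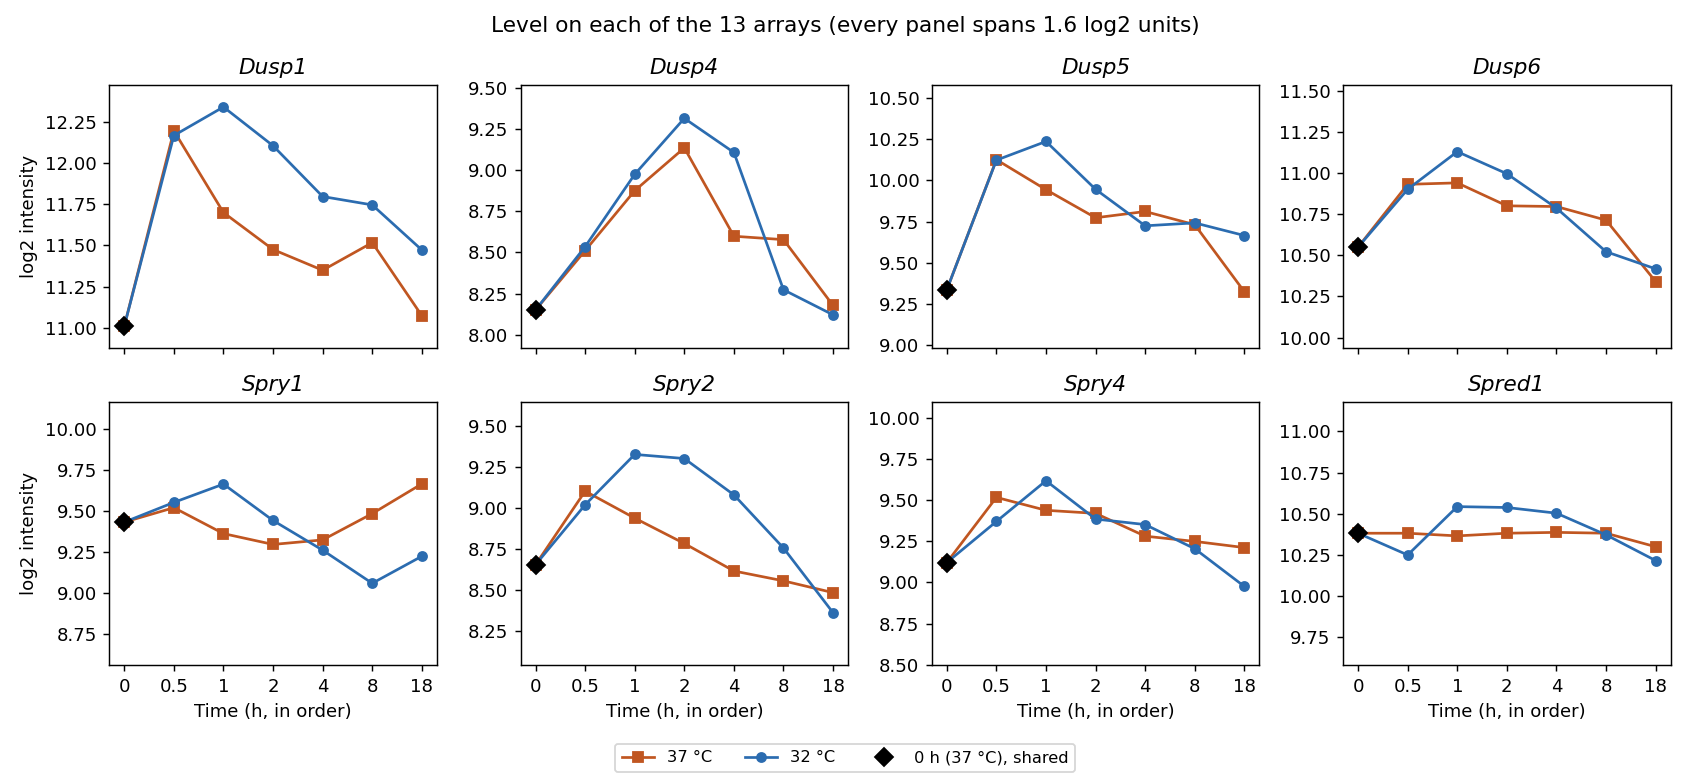
log2 intensity (vertical axis) on each array against time in hours, in order (horizontal axis), with circles for 32°C, squares for 37°C and a diamond for the array at 0 h that both series share. Every panel spans the same log2 range, and each point is 1 array. Dusp1 reached 12.34 at 1 h at 32°C against 11.70 at 37°C, while Spred1 stayed between 10.30 and 10.39 at 37°C.

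Dusp1, an immediate early gene whose nuclear product acts on p38, JNK and ERK, changed most. At 37°C its level was 11.01, 12.20, 11.70, 11.48, 11.35, 11.52 and 11.07 at 0, 0.5, 1, 2, 4, 8 and 18 h. From the same start, the arrays at 32°C read 12.17, 12.34, 12.11, 11.80, 11.75 and 11.47 from 0.5 to 18 h. The rise at 0.5 h was thus nearly the same at both temperatures. By 1 h the level had risen further at 32°C and fallen at 37°C, and the gap narrowed from 2 to 8 h. The highest array was 2.52-fold of 0 h at 32°C (at 1 h) and 2.28-fold at 37°C (at 0.5 h). At 2 h 82.3% of that log2 rise was left at 32°C against 39.2% at 37°C, where the highest array had come earlier. The cooled array was nearly equal to its control at 0.5 h (-0.029) and higher by 0.64, 0.63, 0.45, 0.23 and 0.40 at the later times. Over the 6 pairs the difference was 0.39 (SE 0.083, adjusted p = 0.113 from limma), and the coefficient of divergence, a line through 0 at 0 h fitted to these differences per time point, was 0.093 (SE 0.023, adjusted p = 0.0586). That coefficient was at the 99.7th percentile of all genes. It passed at an adjusted p of 0.0418 when only genes above the median signal were tested and at 0.0484 without the arrays at 1 h. With a separate term for 32°C, which takes out a constant level difference, the coefficient was 0.021 and its adjusted p 0.889, the highest over all alternatives of that test.

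Dusp5, whose nuclear product is selective for ERK, had the course most like that of Dusp1. Its level at 37°C was 9.34, 10.13, 9.94, 9.77, 9.81, 9.73 and 9.32 from 0 to 18 h. At 32°C it was 10.12, 10.24, 9.95, 9.72, 9.74 and 9.67 from 0.5 to 18 h. As for Dusp1, the rise at 0.5 h was alike, and the cooled arrays were higher at 1 and 2 h, by 0.29 and 0.17. They were no longer so at 4 h (-0.087) and 8 h (0.011) and were higher by 0.34 at 18 h. Over the 6 pairs the difference was 0.12 (SE 0.063, adjusted p = 0.446 from limma), with a 95% interval from -0.020 to 0.26.

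The region before the start site is shown for Dusp1 and Dusp5 because these rose by over 1.5-fold within 0.5 h at both temperatures. RefSeq sequence of GRCm38.p6 was at hand for 6 of the 8 genes (Dusp1, Dusp5, Dusp6, Spry1, Spry2 and Spred1), and the 250 bases before each start were searched on both strands. Each sequence below ends at the last base before the start and is written 5′ to 3′ in the direction of the gene. Capitals mark matches to the core of the cyclic AMP response element (CRE), TGACG or its complement CGTCA, and to the CArG box, the binding sequence of serum response factor. Dusp1 lies on the minus strand, with its window at chr17:26508473-26508722, and Dusp5 on the plus strand, with its window at chr19:53528895-53529144.
Dusp1: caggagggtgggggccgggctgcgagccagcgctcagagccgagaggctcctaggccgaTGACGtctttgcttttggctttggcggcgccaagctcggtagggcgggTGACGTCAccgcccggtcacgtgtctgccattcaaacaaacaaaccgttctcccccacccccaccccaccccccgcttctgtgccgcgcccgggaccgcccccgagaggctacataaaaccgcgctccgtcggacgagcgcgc
Dusp5: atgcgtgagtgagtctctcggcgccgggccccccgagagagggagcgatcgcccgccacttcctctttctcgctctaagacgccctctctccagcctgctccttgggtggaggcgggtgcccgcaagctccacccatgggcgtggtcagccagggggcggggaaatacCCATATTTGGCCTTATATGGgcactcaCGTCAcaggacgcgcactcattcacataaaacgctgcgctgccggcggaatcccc
Dusp1 held a whole CRE, TGACGTCA, from 143 to 136 bases before its start, and this contains a core on each strand. A further core lay from 191 to 187 bases before the start. Dusp5 held 1 core, from 55 to 51 bases before the start, and 2 adjoining CArG boxes, from 82 to 73 and from 72 to 63. None of the other 4 windows held any of these. Of 32851 promoter windows of the same length, 1.55% held the whole CRE, 17.8% a CRE core and 1.47% a CArG box. The ETS core GGAAG was found in 3 of the 6 windows (Dusp5, Dusp6 and Spred1) and in 64.1% of all windows. The ETS motif CCGGAA (12.03% of all windows), the AP-1 motif TGACTCA or TGAGTCA (4.46%) and the TATA box as TATAAA or TATATA (15.6%) were found in none of the 6. A match is a description of these letters and was not tested as a site.

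Dusp4, another inducible nuclear phosphatase, rose more slowly and was the only member with its highest array at 2 h in both series. Its level at 37°C was 8.15, 8.51, 8.88, 9.14, 8.60, 8.58 and 8.18 from 0 to 18 h. The arrays at 32°C read 8.54, 8.97, 9.31, 9.11, 8.27 and 8.12 from 0.5 to 18 h. Both courses rose together to 2 h, 1.98-fold of 0 h at 37°C and 2.24-fold at 32°C. They parted at 4 h, where the cooled array was higher by 0.51, and crossed by 8 h, where it fell by 0.30 below its control. The mean difference of the pairs was 0.075 (SE 0.087, adjusted p = 0.769 from limma, 95% interval -0.12 to 0.27), and without the arrays at 4 h it was -0.012.

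Dusp6, the cytoplasmic phosphatase that is selective for ERK, moved less. Its level was 10.55, 10.93, 10.94, 10.80, 10.80, 10.71 and 10.34 at 37°C and, from 0.5 h on, 10.90, 11.13, 11.00, 10.79, 10.52 and 10.42 at 32°C. Both series were highest at 1 h, 1.49-fold of 0 h at 32°C and 1.31-fold at 37°C, although at 37°C the arrays at 0.5 and 1 h differed by 0.0088 only. The cooled arrays were higher by 0.19 at 1 h and 0.20 at 2 h and were at or below the control at 4 and 8 h. The mean difference of the 6 pairs was 0.038 (SE 0.057, adjusted p = 0.830 from limma, 95% interval -0.089 to 0.17).

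Spry2, a membrane-associated inhibitor of receptor tyrosine kinase signalling, was the Sprouty gene with the widest gap between the temperatures. At 37°C it read 8.66, 9.10, 8.94, 8.78, 8.62, 8.56 and 8.49, so that every array after 0.5 h was lower than the one before. At 32°C it read 9.02, 9.33, 9.30, 9.08, 8.76 and 8.36 from 0.5 to 18 h. The cooled course was highest at 1 h and the control at 0.5 h, and the cooled course stayed high for longer. At 2 h 96.3% of its highest log2 rise was left against 28.8% at 37°C. The difference was -0.083 at 0.5 h, then 0.39, 0.52, 0.46 and 0.20, and -0.12 at 18 h. Over the 6 pairs it was 0.23 (SE 0.089, 95% interval 0.030 to 0.42), which did not pass after adjustment (adjusted p = 0.307 from limma). Kendall's tau over the 7 arrays, which measures how steadily a level falls or rises, was -0.71 at 37°C and -0.24 at 32°C.

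Spry1 was the member that lay furthest below its controls over 4, 8 and 18 h. From 4 to 8 h its level fell at 32°C and rose at 37°C, and from 8 to 18 h it rose at both. Its level at 37°C was 9.43, 9.52, 9.36, 9.30, 9.32, 9.48 and 9.67. At 32°C it was 9.55, 9.66, 9.44, 9.26, 9.06 and 9.23 from 0.5 to 18 h. It was higher in the cold at 1 h, by 0.30, and lower at 8 and 18 h, by -0.42 and -0.44. At 37°C the array at 18 h was the highest of the series, and at 32°C the array at 8 h was the lowest. All 3 cooled arrays from 4 h on were below all 3 controls. That late difference was -0.31 (SD 0.21 over 3 pairs; SE 0.087, adjusted p = 0.0975 from limma), or 0.807-fold, and without the arrays at 4 h it was -0.43 with an adjusted p of 0.0468. Over all alternatives of this value its adjusted p lay between 0.0468 and 0.382.

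Spry4 and Spred1 showed small differences. Spry4, a further Sprouty inhibitor, read 9.12, 9.52, 9.44, 9.42, 9.28, 9.25 and 9.21 at 37°C and 9.37, 9.62, 9.38, 9.35, 9.20 and 8.98 from 0.5 to 18 h at 32°C. It rose and fell at both temperatures, and the cooled array was lower at 0.5 h (-0.15), higher at 1 h (0.18) and lower at 18 h (-0.24). Spred1, whose product brings the RAS inactivator neurofibromin to the membrane, read 10.38, 10.38, 10.37, 10.38, 10.39, 10.38 and 10.30 at 37°C. Its values at 32°C were 10.25, 10.54, 10.54, 10.50, 10.37 and 10.22 from 0.5 to 18 h. No early rise was therefore seen for Spred1 at 37°C, and at 32°C it was 1.12-fold of 0 h at 1 h after a lower value at 0.5 h. The mean difference of the pairs was -0.035 for Spry4 (SE 0.058) and 0.037 for Spred1 (SE 0.054), with adjusted p of 0.848 and 0.823 from limma.

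At single arrays a fold of 1.5 was used as a mark, with no test. At 0.5 h Dusp1 and Dusp5 had risen past it from 0 h, at 32°C and at 37°C alike, where 0.171% and 0.216% of all genes had done so. At 1 h Dusp1, Dusp4, Dusp5 and Spry2 were past it at 32°C (0.647% of all genes), and Dusp1, Dusp4 and Dusp5 at 37°C (0.351%). At 2 h the same 4 members were still past it at 32°C (0.687% of all genes), and at 37°C Dusp4 alone (0.557%). Between the temperatures, Dusp1 alone was over 1.5-fold higher at 32°C, at 1 h (0.371% of all genes) and at 2 h (0.366%).

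The 8 members were all on the same side at 1 h only. At 0.5 h 2 of 8 were higher at 32°C, with a median difference of -0.030 and a range from -0.15 to 0.032, and 58.4% of all genes were higher. At 1 h 8 of 8 were higher, with a median of 0.24 and a range from 0.099 to 0.64, against 49.2% and a median of 0 over all genes. At 2 h 7 of 8 were higher, with a median of 0.18, against 51.7% of all genes. At 4 h 5 of 8 were higher, against 48.1% of all genes, and 3 of 8 at 8 h (47.5%) and at 18 h (54.6%), so the shared sign of 1 h did not last. At 18 h Dusp1 and Dusp5 were higher by 0.40 and 0.34 and Spry1 was lower (-0.44). At 1 h the lowest member, Dusp4, was at the 79.0th percentile of all genes and the highest, Dusp1, at the 99.7th. These 8 values come from 1 pair of arrays and are not replicates. The plot of differences by time sets them against the middle 90% of all genes.

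**Figure D2:**
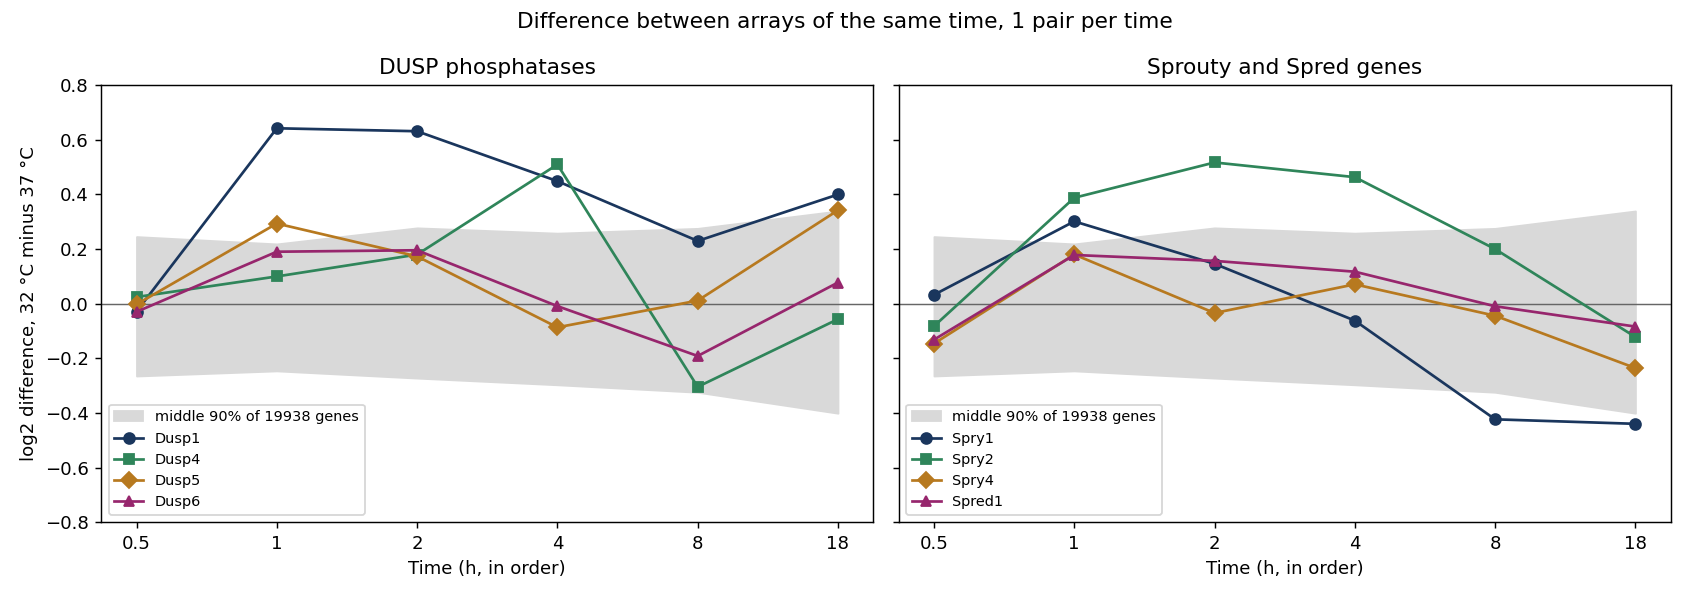
log2 difference, 32°C minus 37°C, between the 2 arrays of each time (vertical axis) against time in hours, in order (horizontal axis), with the phosphatases on the left and the Sprouty and Spred genes on the right. The grey band holds the middle 90% of 19938 genes, from -0.25 to 0.22 at 1 h. Dusp1, Dusp5, Spry1 and Spry2 lie above the band at 1 h, and Spry1 lies below it at 8 and 18 h.

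The time of the highest array was compared with that of all genes, a measure added after the values had been seen. At 32°C it was 1 h for 7 of 8 members and for 8.99% of all genes. At 37°C it was 0.5 h for 4 of 8 members and for 9.32% of all genes, and the others were spread from 1 h (Dusp6) and 2 h (Dusp4) to 4 h (Spred1) and 18 h (Spry1). The highest array came later at 32°C than at 37°C for 4 of 8 members and for 44.8% of all genes. For Dusp4 and Dusp6 the time was the same, and for Spry1 and Spred1 it was earlier at 32°C. The gap between the highest and the next array was small for some members: 0.0054 for Spred1 and 0.025 for Spry2 at 32°C, against 0.17 for Dusp1 and 0.23 for Spry4.

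**Figure D3:**
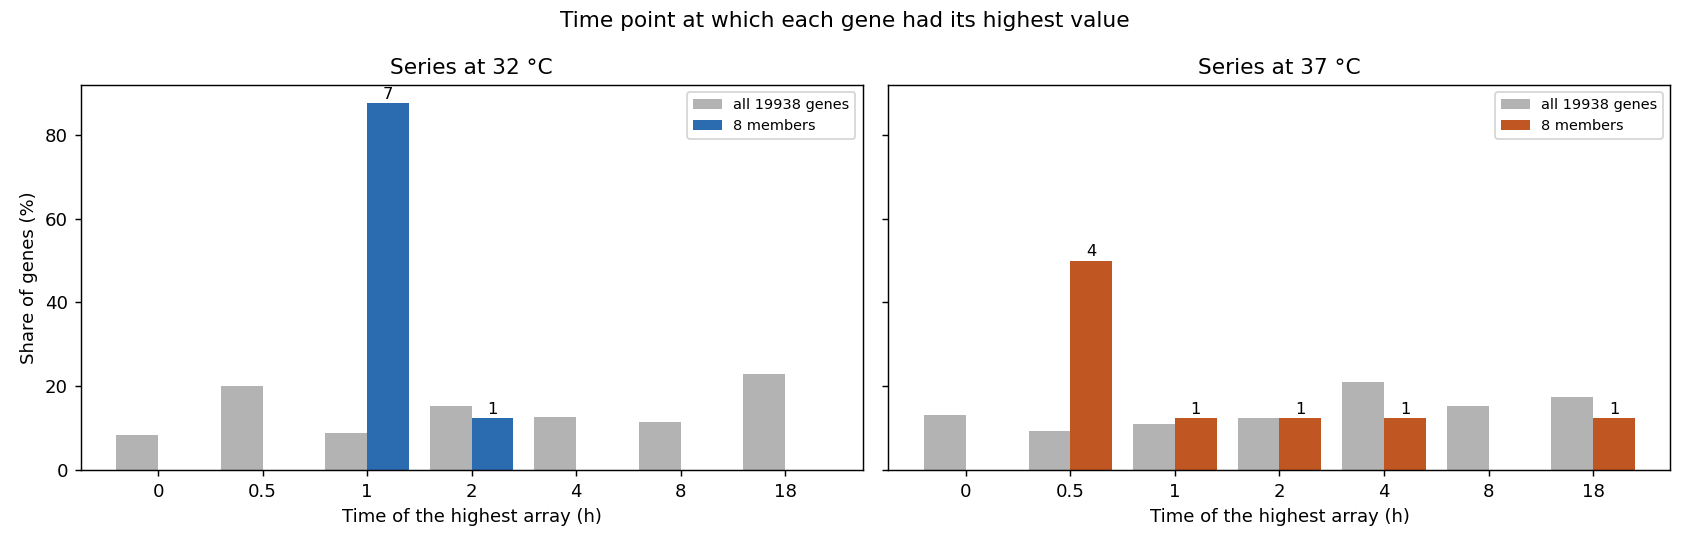
Share of genes in percent (vertical axis) whose highest array in a series was that of the time given in hours (horizontal axis), at 32°C on the left and 37°C on the right. Grey bars are all 19938 genes, and coloured bars the 8 members with their number on top. At 32°C the bar of the members stands at 1 h (7 of 8), and at 37°C the tallest stands at 0.5 h (4 of 8).

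Some of the other genes that rose early also showed this timing. A rise of at least 1.25-fold at 0.5 h in both series was found for 74 genes, of which 5 were members (Dusp1, Dusp4, Dusp5, Dusp6 and Spry2). Of the 69 others, 49 (71.0%) were higher at 32°C at 1 h, with a median difference of 0.14. Their highest array was at 1 h at 32°C for 26 (37.7%), and for 19 (27.5%) it was at 1 h at 32°C and at 0.5 h at 37°C. That last combination was seen in 1.52% of all genes and in 4 of 8 members. The choice by the arrays at 0.5 h itself favours a highest array at 0.5 h at 37°C. The share of all genes is therefore no like comparison for the early risers. The difference between the members and the other early risers was not tested.

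The tests that use several arrays gave no member past an adjusted p of 0.05. In the slope over the order of the times, 0 of 8 passed at 32°C, where 0.0953% of all genes passed, and 0 of 8 at 37°C, where 0% did. At an unadjusted p under 0.05 limma counted 16.5% of all genes at 32°C and 5.80% at 37°C, and 1 member at each temperature, Spry1 at 32°C (a slope of -0.072 with an SE of 0.024 and an adjusted p of 0.190) and Spry2 at 37°C (-0.069, SE 0.028, adjusted p = 0.832). A line over time cannot show a rise that is followed by a fall. In the divergence 0 of 8 passed, against 2.83% of all genes, and 1 was at an unadjusted p under 0.05, Dusp1, where 18.4% of all genes were. In the mean of the 6 pairs 0 of 8 passed, against 0.0702% of all genes, and 2 were at an unadjusted p under 0.05, Dusp1 and Spry2, where 13.5% of all genes were. With the exact Kendall test no gene passed after adjustment in either series. At an exact 1-sided p under 0.05 for a fall, 0 of 8 members were counted at 32°C (8.44% of all genes) and 1 of 8, Spry2, at 37°C (3.30%).

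Early and late differences were also fitted apart. Over 0.5, 1 and 2 h the difference between 32°C and 37°C was positive for 7 of 8 members, against 53.5% of all genes. Its median over the members was 0.14 and its range from -0.00043 (Spry4) to 0.41 (Dusp1, SE 0.120, adjusted p = 0.592 from limma). None passed, and 0% of all genes passed this test, with Dusp1 the 1 member at an unadjusted p under 0.05 (7.29% of all genes). Over 4, 8 and 18 h it was positive for 5 of 8, as for 53.5% of all genes, with a median of 0.028 and a range from -0.31 (Spry1) to 0.36 (Dusp1, SE 0.120, adjusted p = 0.149). None passed there either, where 2.95% of all genes did, and Dusp1 and Spry1 were the 2 members at an unadjusted p under 0.05 (18.4% of all genes). For Dusp1 the late value was 0.36 with an adjusted p of 0.0456 without the arrays at 0.5 h, and over all alternatives its adjusted p lay between 0.0456 and 0.382.

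Early and late levels were compared by setting the 6 arrays at 0.5, 1 and 2 h against the 6 at 4, 8 and 18 h. Temperature was a covariate, and the comparison was added after the values had been seen. The array at 0 h was left out, so a steady fall and a brief rise both give a positive coefficient. All 8 coefficients were positive, against 42.3% of all genes, with a median of 0.36 and a range from 0.050 (Spred1) to 0.51 (Dusp1, SE 0.111). No member passed after adjustment (adjusted p 0.111 to 0.726, limma), where 0.115% of all genes did. An unadjusted p under 0.05 was found for 6 of 8 (all but Spry1 and Spred1), as for 12.5% of all genes. The fit had no block for the time point, so the 2 arrays of a time counted as independent and its p-values may be too small. Dusp1 ranked at the 99.8th percentile of all genes by this coefficient, Spry2 at the 99.7th and Dusp5 at the 99.5th. Within 32°C the early arrays were higher than the late ones by 0.080 (Spred1) to 0.53 (Dusp1), and within 37°C by 0.020 (Spred1) to 0.48 (Dusp1), except for Spry1, for which early minus late was -0.098 there, with the late arrays higher.

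**Figure D4:**
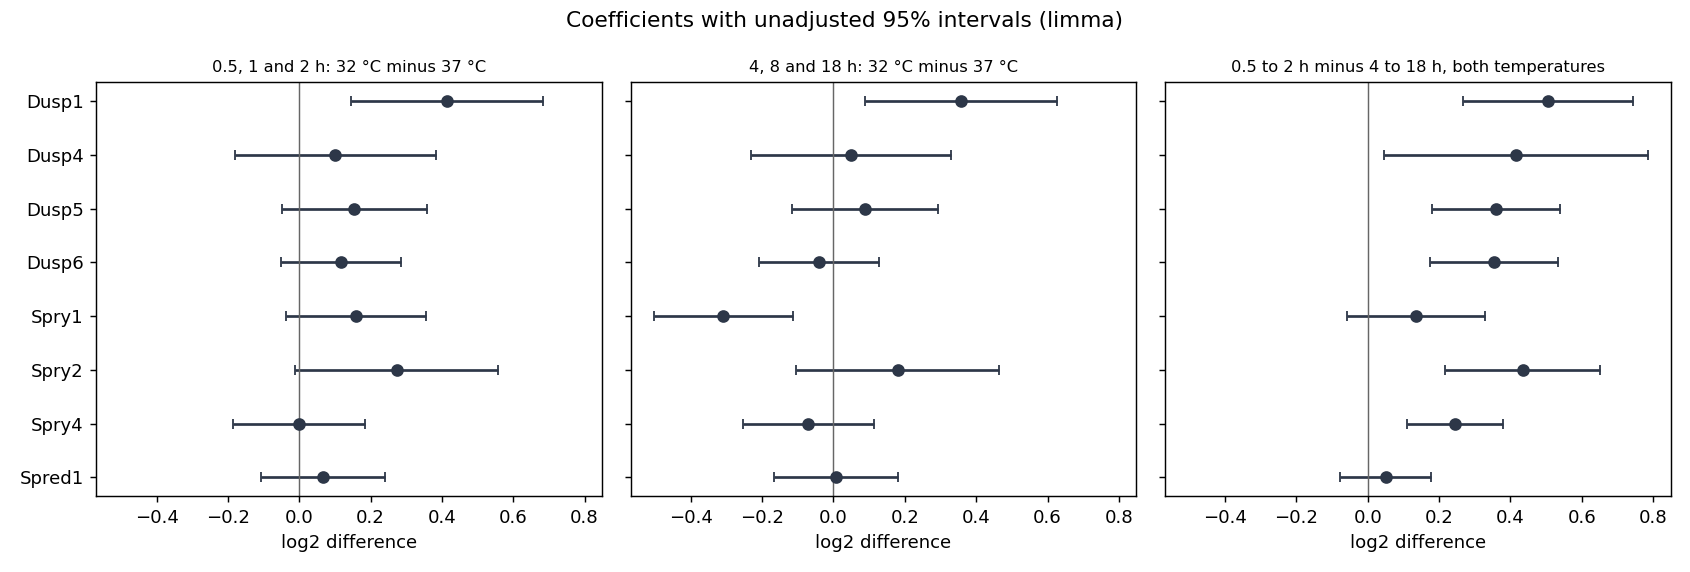
log2 difference (horizontal axis) for each member (vertical axis), with points for the limma coefficient and bars for its 95% interval, which is not adjusted over genes. The left panel gives 32°C minus 37°C over 0.5, 1 and 2 h, the middle panel the same over 4, 8 and 18 h, and the right panel the early minus the late arrays over both temperatures. All 8 points of the right panel lie above 0, whereas in the middle panel Dusp1 lies at 0.36 and Spry1 at -0.31.

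Across the 13 arrays the levels of the members ran together to different degrees. Over the 28 pairs of members Pearson's r lay between 0.042 (Dusp4 with Spry1) and 0.92 (Dusp1 with Dusp5), with a median of 0.71, and all were positive. The arrays are shared by both genes of every pair and are ordered in time, so these values describe the courses only. Among 9969 genes at or above the median signal, Btg2 was close to Dusp1 (0.92) and Dusp5 (0.93), Pxdc1 (0.96) and Dlc1 (0.94) to Dusp4, and Ccn1 (0.97) and Ereg (0.93) to Dusp6. Hk2 (0.97) and Nfil3 (0.95) were closest to Spry2, Egr2 (0.90) and Slc25a25 (0.89) to Spry4, Xpo4 (0.94) and Scaf11 (0.92) to Spred1, and Tmem143 (0.97) and Invs (0.95) to Spry1. These genes were picked for the highest r among the 9969, and no background for such maxima was computed.

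Of 89 other genes of the pathway, 81 were measured, and the others were not analysed here. In the divergence 2 of the 81 passed upward and 1 downward, where 2.83% of all genes passed. An unadjusted p under 0.05 was found for 16, and for 18.4% of all genes. No ligand (0 of 12), receptor (0 of 10), kinase or scaffold (0 of 7), other inhibitor (0 of 9) or other phosphatase (0 of 10) passed in limma's divergence, with 1, 1, 0, 2 and 3 at an unadjusted p under 0.05. Rasa1, a GTPase-activating protein that switches RAS off, was lower at 32°C by a divergence of -0.062 (SE 0.014, adjusted p = 0.0477) and by -0.31 over 4, 8 and 18 h (adjusted p = 0.0426). It was the only one of the 10 adaptors and RAS regulators to pass. The 2 that passed upward were among the 23 transcripts that ERK signalling raises. They were Ier3, an early response gene (0.086, SE 0.016, adjusted p = 0.0251), and Bcl10, an adaptor of NF-kappaB signalling (0.058, SE 0.013, adjusted p = 0.0424). Bcl10 was also higher over 4, 8 and 18 h, by 0.33 (adjusted p = 0.0410 from limma). In that late difference 2.95% of all genes passed, and none did under relative ranks or without the arrays at 8 h. With a separate term for 32°C only 4 of all genes passed the divergence.

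The timing of the highest array was counted for each role, with no test. For the 23 transcripts that ERK signalling raises the highest array was at 1 h at 32°C for 14, at 0.5 h at 37°C for 12, and both held for 10. Of all genes, 8.99% were highest at 1 h at 32°C, 9.32% at 0.5 h at 37°C, and both held for 1.52%. Both also held for 0 of 12 ligands, 1 of 10 receptors, 0 of 10 adaptors, 0 of 7 kinases and scaffolds, 2 of 9 other inhibitors and 0 of 10 other phosphatases. The immediate early gene Ier2 was at 8.93 at 32°C and 7.72 at 37°C at 1 h, a difference of 1.21, after 8.90 and 8.78 at 0.5 h. Its divergence did not pass (0.082, SE 0.036, adjusted p = 0.252 from limma). In the comparison of early with late arrays 4 of the 23 passed and no other gene of the list, where 0.115% of all genes passed. That fit had no block for the time point, and the 4 are named after their values were seen. These were Trib1 (0.72, adjusted p = 0.0239), Junb (0.62, adjusted p = 0.0385), Ier3 (0.56, adjusted p = 0.0196) and Phlda1 (0.53, adjusted p = 0.0385).

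Among the other named genes the divergence did not pass. The growth factors Fgf7 and Ereg were at 0.035 and 0.053, the receptors Pdgfrb and Met at -0.054 and -0.039, and the adaptor Gab1 at -0.042. The kinase Braf and the scaffold Ksr1 were at -0.017 and -0.020, the inhibitors Spred3 and Il17rd at -0.039 and -0.041, and the phosphatases Dusp7 and Dusp10 at -0.050 and 0.046. Their adjusted p lay between 0.0633 (Pdgfrb) and 0.590 (Braf). Dusp10, which acts on p38 and JNK, was highest at 2 h at 32°C and at 1 h at 37°C, with a difference of 0.75 at 2 h.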

How the data were processed

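Expression was measured on 13 Affymetrix Mouse Gene 1.0 ST arrays, each hybridized with RNA pooled from 3 dishes. The table deposited by the authors holds linear intensity values from 4.24 to 18146.4 for 28853 transcript clusters. The summary of probes and its normalization are not given in the sources used. These deposited intensity values were log2 transformed without further scaling. Gene symbols came from the platform annotation and, through Entrez identifiers, from RefSeq. Of the transcript clusters, 21789 carried 1 symbol, and for each of 19938 genes the one with the highest mean was kept.

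The functions lmFit and eBayes of limma 3.58.1 (R 4.3.3) were run on all genes, and 2-sided p-values received a Benjamini-Hochberg adjustment across the whole table, with a threshold of 0.05. The slopes used the order of the 7 time points (0 to 6) in each series. The divergence was the coefficient of 32°C times that order over 13 arrays, with time points as blocks and without a term for the level at 32°C. The differences over all pairs and over early and late times used the 12 arrays after 0 h, with the same block. The comparison of early with late arrays used these 12 arrays with temperature as a covariate. It had no block, so the 2 arrays of a time counted as independent. Kendall's tau was tested with exact p-values. Among the members, 1 had tied values, Spred1 at 37°C, at 0, 0.5, 2 and 8 h. Its exact p was that of an untied series with the same size of tau, so the ties were not allowed for. Of the limma fits, only the divergence was also run on simulated data. Since samples of 1 array per time carry no replicate error, p-values measure the spread of arrays around these fits, and their precision is set by how few arrays there are.

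The 8 members, the lists and the tests were chosen with earlier results of these data known. The named genes were all members, pathway genes past the threshold in a planned test, the 2 with the largest absolute divergence in each role, and the 2 genes most like each member by Pearson's r. The early against late comparison, the time of the highest array and the differences at 1 h were added after the values had been seen. Alternatives covered the normalization, the filter on low signal, an offset before log2, several transcript clusters of a gene, the eBayes settings, the coding of time, the model terms and each time point left out in turn. Single probes, detection calls and array batches were not used here.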

Additional observations from a re-analysis of the deposited data

How the results depend on the processing

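The number of members past the threshold stayed at 0 in all tests under quantile normalization, relative ranks within an array, an offset of 16, the mean over transcript clusters of a gene, eBayes with trend and robust and the fits without a block for the time point. It became 1 in the divergence with genes above the median signal only (Dusp1), and, over the time points left out in turn, it ran from 0 to 1 in the divergence (Dusp1, without 1 h) and from 0 to 1 in the late difference (Dusp1 without 0.5 h, Spry1 without 4 h). The counts of members highest at 1 h at 32°C (7), highest at 0.5 h at 37°C (4) and higher at 1 h (8) were the same under quantile normalization, relative ranks and the offset, where 8.99 to 11.5%, 9.32 to 11.3% and 49.2 to 53.7% of all genes were so. No member whose sign reversed below had been past the threshold, and the cause was not tested. The slope at 32°C reversed for Dusp1 to -0.00266 (quantile), -4.15e-05 (offset) and -0.030 (log2 of hours plus 1) and for Dusp5 to 0.014 rank points. The divergence with a separate term for 32°C, which takes out a constant level difference, was 0.021 for Dusp1 (0.093 without the term), -0.037 for Dusp4, -0.023 for Dusp6 and Spry2 and -0.010 for Spred1. Under ranks and quantile normalization Kendall's tau was 0.048 for Dusp4 at 32°C and 0.24 for Spred1 at 37°C. With each time point left out, the slope at 32°C ran from -0.16 to 0.067 for Dusp1, -0.13 to 0.076 for Dusp4, -0.11 to 0.018 for Dusp5, -0.15 to 0.019 for Spry2, -0.093 to 0.0037 for Spry4 and -0.028 to 0.020 for Spred1. At 37°C it ran from -0.18 to 0.0072 for Dusp1, -0.088 to 0.076 for Dusp4, -0.13 to 0.025 for Dusp5, -0.10 to 0.0079 for Dusp6, -0.011 to 0.033 for Spry1, -0.064 to 0.0017 for Spry4 and -0.011 to 0.00090 for Spred1. The divergence ran from -0.015 to 0.037 for Dusp4, -0.0022 to 0.021 for Dusp6 and -0.020 to 0.0031 for Spry4, and the mean of all pairs from -0.012 to 0.15 for Dusp4 and -0.078 to 0.0050 for Spry4. The early difference ran from -0.090 to 0.073 for Spry4, and the late one from -0.18 to 0.23 for Dusp4, -0.038 to 0.18 for Dusp5, -0.10 to 0.034 for Dusp6, -0.14 to 0.013 for Spry4 and -0.047 to 0.053 for Spred1. Early against late arrays ran from -0.0010 to 0.097 for Spred1. Kendall's tau ran from -0.33 to 0.33 for Dusp4 at both temperatures, -0.60 to 0.067 for Spry2 at 32°C, -0.20 to 0.33 for Spry1 and -0.33 to 0.20 for Spred1 at 37°C. Leaving out 0 h cannot change the divergence, in which both series share that array. Over all genes the calls ranged, against those of the settings used above, from 2 to 353 genes in the slope at 32°C (19), 4 to 894 in the divergence (565), 0 to 34 in the mean of all pairs (14), 0 to 910 in the late difference (588) and 1 to 55 in early against late arrays (23), and were 0 throughout in the slope at 37°C and the early difference. With 1 array per time and temperature, differences near the spread of all genes between 2 arrays (SD 0.158 at 1 h) could not be resolved. The fits of the difference between temperatures paired arrays by time point, and the fit of early against late arrays did not. No fit with a replicate block could be made because the labels give no replicate numbers and each group has 1 array.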
